A study of Mus musculus with 4 samples.

Results

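The genes described here carry out the methionine cycle and the folate-linked one-carbon reactions of the liver, and they were chosen by name, with earlier results of these data known. They are Mat1a, Gnmt, Bhmt, Ahcy, Cbs, Pemt, Shmt1, Shmt2 and Mthfd2, which are 9 of the 24346 gene symbols listed in each liver library, and all 9 were found. Male ob/ob mice, which become obese because they make no functional leptin, were fed 1 of 4 diets for 4 weeks from 6 weeks of age. CD was a normal chow diet, and WD was a high fat, high cholesterol diet with cocoa butter. WD also held less casein and more sucrose than CD, so the diets differed in more than fat. CD+7KC and WD+7KC were the same diets with 0.01% 7-ketocholesterol (7KC), an oxysterol formed when cholesterol is oxidised. Cholesterol made up 1% of every diet, CD included, so no group was free of added cholesterol, and every group carried the same leptin deficiency. Each group had 1 library, and the number of mice behind a library was not given in the sources used here.

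Methionine is turned into S-adenosylmethionine (SAM), the methyl donor of most methylation reactions, and the liver is the main organ in which this takes place. Each methyl transfer leaves S-adenosylhomocysteine, which is split to homocysteine; homocysteine is then either methylated back to methionine, by betaine or by folate, or drained through transsulfuration towards cysteine and glutathione. Folate carries the one-carbon units, which come chiefly from serine, in parallel cytosolic and mitochondrial arms. Fatty liver disease and disturbed methyl metabolism are often studied together, because phosphatidylcholine made by methylation is needed to export fat from hepatocytes.

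Expression was given as FPKM, the fragment number of a gene scaled to its exon length and to all fragments mapped in the library, a level per length that can be compared between genes. The steps between low values corresponded to about 9410000 to 12130000 mapped fragments per library, so that 1 FPKM stood for about 9.41 to 12.13 reads per kilobase. Differences are given as the log2 ratio of FPKM + 0.1, a scale that understates the change of low genes. They were computed for the 10686 genes whose level averaged 1 FPKM or more across libraries, and a gene was counted as higher or lower when the ratio passed 1.5-fold, the threshold used throughout. No p-value belongs to a ratio of 2 single libraries. For members with a single RefSeq mRNA, the brackets after a ratio hold its exact (Clopper-Pearson) 95% counting interval, which covers counting error and not the variation between mice. Among the liver markers, 8 of 8 hepatocyte genes were expressed in each library, with a summed level of 61157 FPKM in WD+7KC to 85459 FPKM in CD. The FPKM of all genes summed to 602059 in WD+7KC and to 696062 to 715605 in the other libraries. Rescaling to equal sums therefore moved the median log2 ratio of all genes by 0.21 in WD+7KC compared to WD and by 0.20 in WD+7KC compared to CD+7KC, but by 0.037 in CD+7KC compared to CD and by 0.030 in WD compared to CD. Signs of small ratios that involve WD+7KC rest on this choice, and those of the members are given both ways.

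Most of these genes were among the more strongly expressed of the liver. Bhmt, betaine-homocysteine methyltransferase, which remethylates homocysteine with betaine, was at 2547 FPKM on chow and 2378 with 7KC added, and 786 on WD and 760.3 with 7KC added. Gnmt, glycine N-methyltransferase, which uses up SAM by methylating glycine, was at 1382 FPKM (CD) and 1534 (CD+7KC) in the chow libraries and 523 (WD) and 446 (WD+7KC) in the WD libraries. Both chow libraries were thus well above both WD libraries for these genes, and Bhmt moved from rank 35 and 36 among all symbols on chow to rank 116 and 87 on WD. Gnmt moved from rank 63 and 51 to rank 186 and 196.

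Mat1a, the liver form of methionine adenosyltransferase that makes SAM, was at 795 FPKM without and 840 with 7KC on chow, and 757 without and 617 with 7KC on WD. Ahcy, which hydrolyses S-adenosylhomocysteine, was at 286 FPKM on chow and 295 with 7KC added, and 207 on WD and 153 with 7KC added. Cbs, cystathionine beta-synthase, the entry to transsulfuration, was at 131 FPKM (CD) and 125 (CD+7KC) in the chow libraries and 122 (WD) and 126 (WD+7KC) in the WD libraries. Cbs varied least of the 9 members, with a highest level 1.07 times its lowest, while Mat1a and Ahcy were lowest in WD+7KC. Pemt, which methylates phosphatidylethanolamine to phosphatidylcholine and is a large user of SAM, was at 272 FPKM without and 285 with 7KC on chow, and 362 without and 292 with 7KC on WD. It was the only member whose highest level was in WD.

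Shmt1 and Shmt2 encode the cytosolic and the mitochondrial serine hydroxymethyltransferase, which move a carbon from serine to folate. Shmt1 was at 76.4 FPKM on chow and 73.1 with 7KC added, and 57.4 on WD and 49.8 with 7KC added. Shmt2 was at 79.9 FPKM (CD) and 87.0 (CD+7KC) in the chow libraries and 71.8 (WD) and 72.0 (WD+7KC) in the WD libraries. The pair lay close together on chow, and Shmt1 was the lower of the 2 in every library. Mthfd2, the mitochondrial methylenetetrahydrofolate dehydrogenase that is typical of growing cells and scarce in adult liver, was at 1.02 FPKM without and 0.63 with 7KC on chow, and 1.58 without and 2.903 with 7KC on WD. These values correspond to about 21.1, 13.1, 28.1 and 66.4 reads, so Mthfd2 was both the lowest member and the one measured with the least precision. In all 4 libraries Bhmt was the highest and Mthfd2 the lowest member.

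**Figure D1:**
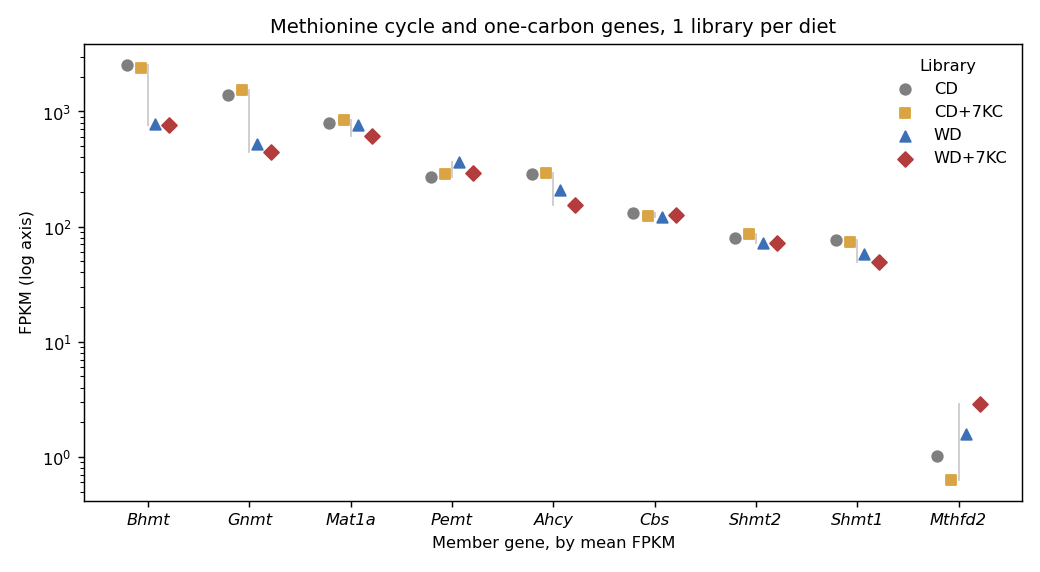
Level of each member in FPKM (log axis) in the 4 liver libraries, with genes ordered by mean level and grey lines from the lowest to the highest library. Each point is 1 library. Bhmt and Gnmt sit at or above 1382 FPKM on both chow diets and at or below 786 FPKM on both WD diets, whereas Mthfd2 runs from 0.63 to 2.903 FPKM in the opposite order.

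The plot of levels shows how much of the expression of the set was carried by its top pair. The FPKM of the 9 members summed to 5570.0 on chow and 5617 with 7KC added, and 2888 on WD and 2519 with 7KC added, which is 0.778%, 0.807%, 0.413% and 0.418% of the library sums. Bhmt and Gnmt made up 70.5% of the members' sum in CD and 69.6% in CD+7KC, but 45.3% in WD and 47.9% in WD+7KC. The shares of the library sum do not depend on the scaling, and the WD shares were close to each other with and without 7KC.

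The sequence just upstream of the annotated starts is shown for Gnmt and Mthfd2, the members that stood furthest below and furthest above chow in WD+7KC. Both are printed 5′ to 3′ on the gene's own strand from the RefSeq promoter table (GRCm38.p6), with the letters CCAAT, the CCAAT box, or their reverse complement ATTGG in capitals.
Gnmt, chr17:46729212-46729415, minus strand: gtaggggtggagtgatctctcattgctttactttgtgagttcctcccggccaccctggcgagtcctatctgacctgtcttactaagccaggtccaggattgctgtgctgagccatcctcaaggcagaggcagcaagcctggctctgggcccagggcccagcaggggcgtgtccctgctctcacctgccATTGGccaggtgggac
Mthfd2, chr6:83317607-83317854, minus strand: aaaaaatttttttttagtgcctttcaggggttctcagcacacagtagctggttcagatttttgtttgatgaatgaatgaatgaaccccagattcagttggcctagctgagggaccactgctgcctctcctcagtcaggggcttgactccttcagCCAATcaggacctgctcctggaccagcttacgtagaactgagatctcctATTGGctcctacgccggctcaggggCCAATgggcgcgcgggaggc
In the full window of 250 bases before and 50 bases after the start, CCAAT occurred 3 times in Mthfd2 and 1 time in Gnmt, counted on both strands. At least 1 occurrence is found in 37.4% of 32851 promoter windows and 3 or more in 3.21%. Among the 8 members with an entry, Bhmt and Cbs had 2 occurrences, Ahcy, Shmt1 and 1 of the 2 Pemt windows had 1, and Shmt2 had 0; Mat1a had no entry. The letters TGATGNAA, an amino acid response element held by 3.97% of windows, and TATAAA, held by 13.6%, were in none of the members' windows. The E-box CACGTG (7.15% of windows) was in Cbs, and the GC box GGGCGG (35.7%) was in Shmt1, Cbs and Ahcy. None of these motifs was found in Gnmt and Bhmt alone, and the matches describe letters and not bound sites.

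The first comparison asked how the Western diet compared with chow when no 7KC was present. In WD compared to CD, Bhmt was 3.24-fold lower, with a log2 ratio of -1.70 [-1.72 to -1.67], and Gnmt was 2.64-fold lower, with -1.40 [-1.45 to -1.35]. These were 2 of 9 members past the threshold downwards, where 6.92% of all tested genes were lower, and 98.9% and 98.1% of genes changed by less than Bhmt and Gnmt. Ahcy (-0.46 [-0.52 to -0.41]) and Shmt1 (-0.41 [-0.51 to -0.32]) were lower by less than the threshold. Small ratios were found for Shmt2 (-0.16), Cbs (-0.098) and Mat1a (-0.071 [-0.096 to -0.046]). Pemt was above chow at 0.41. Mthfd2 was at 0.59 [-0.23 to 1.53], just past the threshold, which 8.57% of genes passed upwards, but its interval included 0, so that the depth could not show a difference. The median over the members was -0.16, beside -0.006 over all genes.

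The same question under 7KC was answered by separate libraries, since WD+7KC and CD+7KC share none with WD and CD. In WD+7KC compared to CD+7KC, Gnmt was 3.44-fold lower (-1.78 [-1.83 to -1.73]) and Bhmt 3.13-fold lower (-1.65 [-1.67 to -1.62]). Ahcy was 1.93-fold lower (-0.95 [-0.9997 to -0.89]), which made 3 of 9 members, where 8.32% of all genes were lower and 11.8% higher. After rescaling to equal sums these ratios were -1.57, -1.44 and -0.74, and the same 3 members passed the threshold. The 889 lower and 1261 higher genes became 508 and 1963 under that scaling. Shmt1 (-0.55 [-0.65 to -0.46]), Mat1a (-0.44 [-0.47 to -0.42]) and Shmt2 (-0.27) were lower by less than the threshold, and were at -0.35, -0.24 and -0.063 after rescaling. Cbs (0.012) and Pemt (0.038) were close to 0 with the deposited values and at 0.22 and 0.25 after rescaling. Mthfd2 was 4.11-fold higher, with a log2 ratio of 2.04 [1.33 to 3.19], or 2.24 after rescaling. The median over the members was -0.44 beside -0.024 over all genes, and -0.24 beside 0.18 after rescaling.

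**Figure D2:**
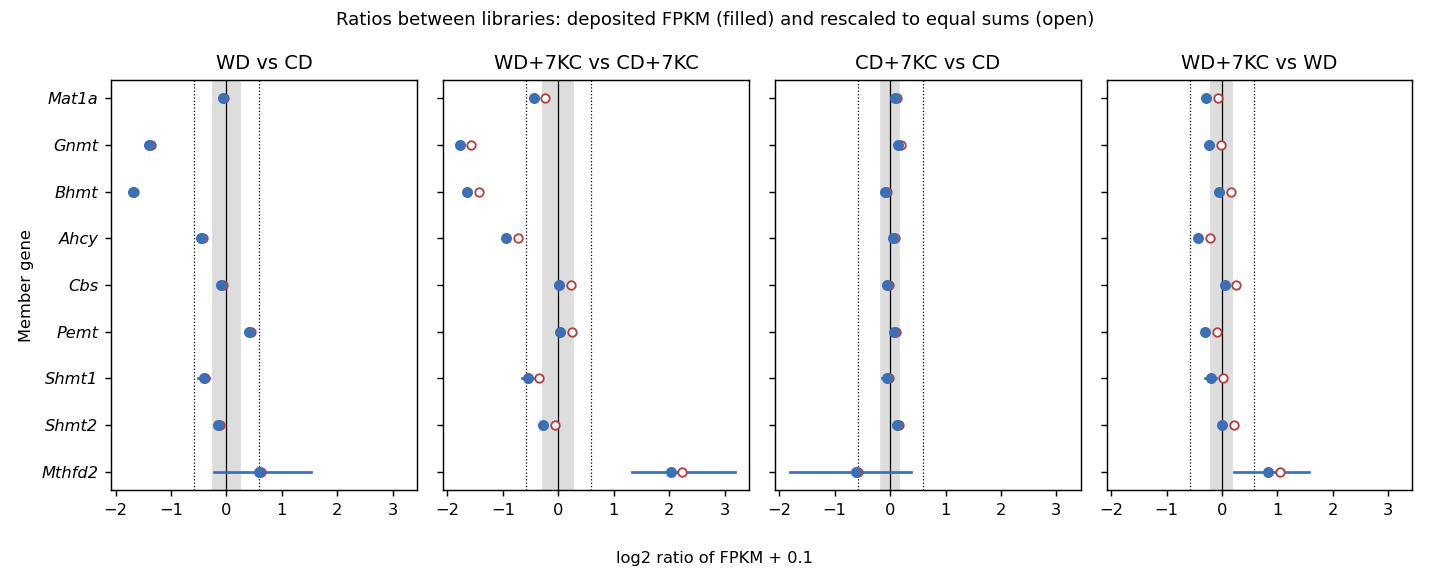
Log2 ratio of FPKM + 0.1 for each member in the 4 comparisons, with deposited values as filled points and values rescaled to equal sums as open points. Horizontal lines are 95% counting intervals (drawn for members with a single mRNA), dotted lines mark the 1.5-fold threshold on either side of 0, and the grey band holds the middle 50% of all tested genes. Gnmt and Bhmt lie beyond the lower line in both diet comparisons and Mthfd2 has by far the widest intervals.

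Gnmt and Bhmt were thus lower past the threshold in both pairs of libraries, under each of the scalings tried. Because the diet comparisons use separate libraries, an additive model of diet and 7KC could also be fitted to all 4 with limma, which borrows the spread from all genes and assumes that 7KC acts alike under both diets. This fit was added after the ratios had been seen and leaves 1 residual degree of freedom per gene. Over both 7KC levels, the WD effect (log2 ± SE) by limma was -1.67 ± 0.162 for Bhmt (Benjamini-Hochberg adjusted p = 0.00415) and -1.59 ± 0.169 for Gnmt (adjusted p = 0.00475). For Ahcy it was -0.71 ± 0.164 (limma, adjusted p = 0.0485). Over 8 alternative settings the adjusted p by limma ran from 8.46e-08 to 0.118 for Bhmt, from 2.22e-07 to 0.118 for Gnmt and from 0.00414 to 0.183 for Ahcy. The highest of each came from fitting without a filter on low genes. Ahcy also missed the threshold with a pseudocount of 1 (adjusted p = 0.064, limma) and with median-ratio scaling (0.053).

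With 3 of 9 members lower and 0 higher by limma, the share among all genes was 3.48% lower (372 genes) and 3.99% higher (426 genes), or 285 and 563 genes after rescaling to equal sums. At an unadjusted p under 0.05 limma gave 5 of 9 members, beside 2598 of all 10686 genes, the fourth and the fifth being Shmt1 (-0.48 ± 0.131, adjusted p = 0.0736) and Mthfd2 (1.31 ± 0.412, adjusted p = 0.108), the only 1 of the 5 with a positive effect. The other members had WD effects of -0.26 for Mat1a, -0.21 for Shmt2, -0.043 for Cbs and 0.22 for Pemt, with adjusted p-values of 0.366 to 0.881 by limma. A p above the threshold with 4 libraries does not show that these levels were equal.

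**Figure D3:**
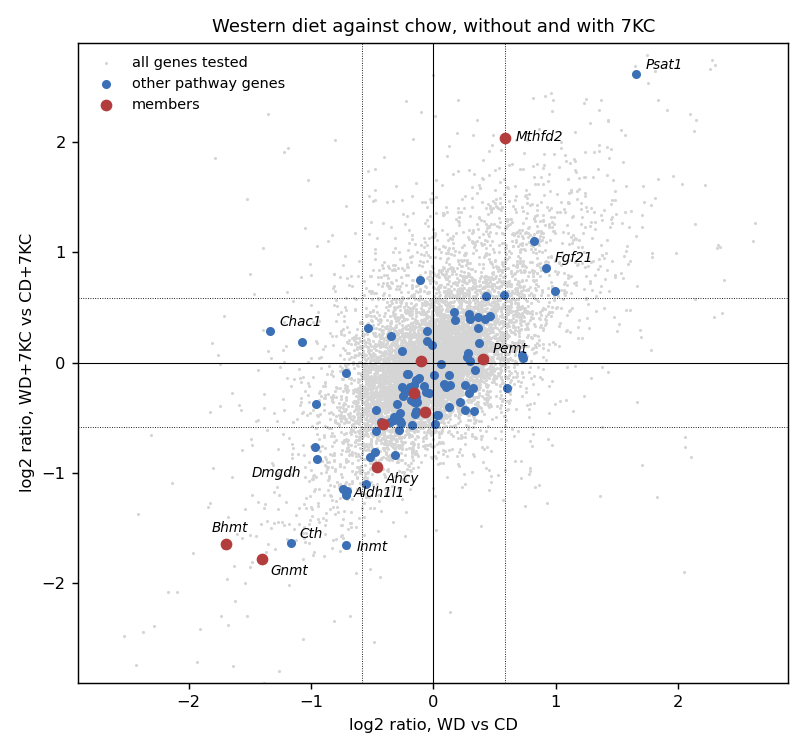
Log2 ratio of WD compared to CD (x axis) against WD+7KC compared to CD+7KC (y axis), which share no library; red points are the 9 members, blue points the 90 tested companion genes of the pathway and grey points all other tested genes within the axis limits. Dotted lines mark the 1.5-fold threshold on either side of 0. Gnmt (-1.40 and -1.78) and Bhmt (-1.70 and -1.65) are at the lower left, Cth lies near them, and Mthfd2 (0.59 and 2.04) and Psat1 are at the upper right.

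Other cell types and liver zones also differed between the diets in these bulk samples, in which fewer cells of a type and less RNA per cell cannot be told apart. In WD compared to CD, the 12 macrophage and Kupffer cell markers summed to 328 against 185 FPKM, with 12 of 12 above 0 on the log2 scale, and the 8 hepatocyte markers to 80882 against 85459 FPKM, a ratio of 0.946. In WD+7KC compared to CD+7KC the macrophage sum was 616 against 276 FPKM and the hepatocyte sum 61157 against 76932 FPKM, a ratio of 0.795. The 7 pericentral hepatocyte markers summed to 3683 against 4853 FPKM without 7KC and to 2380.2 against 4335 FPKM with 7KC. Of these markers 3 of 7 were above 0 without 7KC and 2 of 7 with 7KC. Cyp2e1, also in the hepatocyte list, held 3444 of the 4853 FPKM in CD. The 7 periportal markers summed to 3095 against 3442 and 2644 against 3683 FPKM, with 2 of 7 and 1 of 7 above 0. All these sums are of deposited values. No marker of these lists was at 0 in all libraries. The lowest of the hepatocyte, pericentral and periportal sum ratios was 0.549, for the pericentral markers with 7KC. Single markers were further down in WD+7KC compared to CD+7KC. Hal, the lowest periportal marker, was at -1.59 and Cyp1a2, the lowest pericentral marker, at -1.56. After rescaling to equal sums they were at -1.38 and -1.35. The part of these shifts in the members' ratios was not tested.

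The second question was what adding 7KC did under each diet. In CD+7KC compared to CD no member was higher past the threshold, where 4.39% of all genes were, and 1 of 9 was lower, where 3.04% were. That member was Mthfd2 at -0.62 [-1.82 to 0.37], about 13.1 against 21.1 reads, an interval that included 0. The other 8 members lay between -0.099 (Bhmt [-0.11 to -0.083]) and 0.15 (Gnmt [0.12 to 0.19]). Mat1a was at 0.079, Shmt2 at 0.12, Pemt at 0.064, Ahcy at 0.044, Shmt1 at -0.063 and Cbs at -0.064. The median over the members was 0.044, beside -0.005 over all genes.

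In WD+7KC compared to WD, Mthfd2 was higher at 0.83 [0.21 to 1.56], or 1.04 after rescaling to equal sums. It was the 1 member past the threshold, which 7.49% of all genes passed upwards and 3.03% downwards, or 1373 genes and 140 genes after rescaling against 800 and 324 before it. Ahcy was at -0.44 [-0.50 to -0.38] and stayed below 0 after rescaling, at -0.22. Pemt (-0.31), Mat1a (-0.30 [-0.32 to -0.27]) and Gnmt (-0.23 [-0.29 to -0.17]) were also below 0 and came to -0.091, -0.079 and -0.012 after rescaling. Shmt1 (-0.20) and Bhmt (-0.049) changed sign, to 0.011 and 0.17. Shmt2 was at 0.005 and Cbs at 0.045, and after rescaling at 0.22 and 0.26. With the deposited values 6 of 9 members were below 0, with a median of -0.20 beside -0.030 over all genes; after rescaling 4 of 9 were, with a median of 0.011 beside 0.18.

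**Figure D4:**
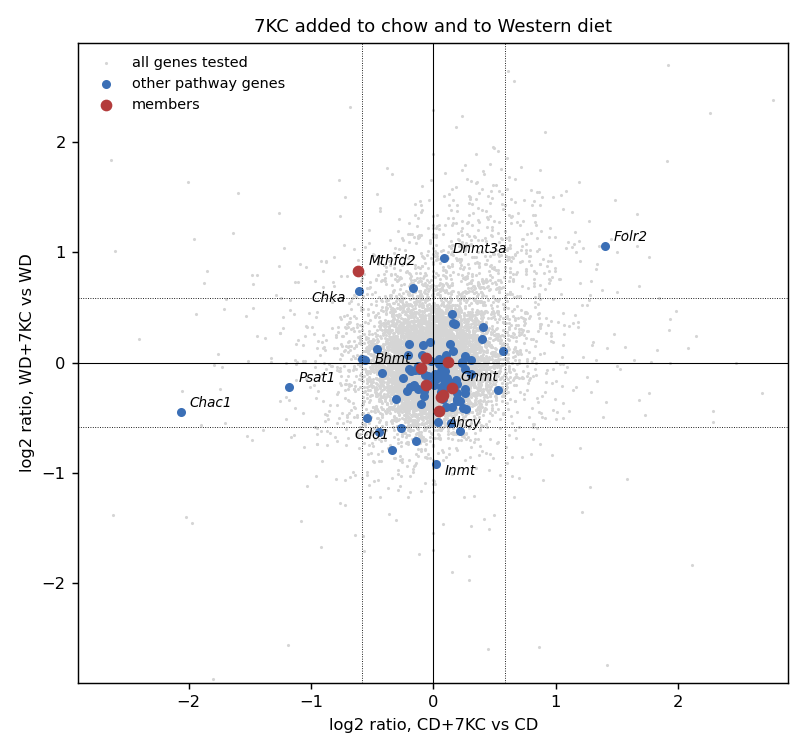
Log2 ratio of CD+7KC compared to CD (x axis) against WD+7KC compared to WD (y axis), which share no library, with the same colours and dotted lines as for the diet comparison and points outside the axis limits not drawn. All members except Mthfd2 lie inside the square bounded by the 1.5-fold thresholds, and Mthfd2 is at -0.62 and 0.83.

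The plot of the 7KC ratios shows Mthfd2 on opposite sides of 0 under the 2 diets. Gnmt and Bhmt, the lowest members in both diet comparisons, were nearer to 0. In WD+7KC compared to WD the macrophage sum was 616 against 328 FPKM with 12 of 12 above 0, and the 6 sinusoidal endothelium markers summed to 123 against 43.5 FPKM, a ratio of 2.82, with 6 of 6 above 0. The 7 stellate cell and fibroblast markers summed to 183 against 186 FPKM, with 3 of 7 above 0, or 5 of 7 after rescaling to equal sums. The 6 T and B cell markers summed to 2.31 against 3.93 FPKM, with 2 of 6 above 0. These sums rest on few reads, and 0 of the 6 markers passed the level filter. The hepatocyte sum was 61157 against 80882 FPKM, a ratio of 0.756. With the deposited values 8 of 8 hepatocyte markers were below 0, with a median of -0.38. After rescaling to equal sums 3 of 8 were above 0, with a median of -0.16. The 6 proliferation markers summed to 43.1 against 37.0 FPKM. In CD+7KC compared to CD the macrophage sum was 276 against 185 FPKM and the hepatocyte sum 76932 against 85459 FPKM. Whether these shifts contributed to the ratios of Mthfd2 or Ahcy was not tested.

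By limma, 0 of 9 members had a 7KC effect over both diets, and 0 had an unadjusted p under 0.05, with adjusted p-values of 0.882 to 0.994. Among all 10686 genes 3 were higher (0.0281%) and 3 lower (0.0281%), and 810 had an unadjusted p under 0.05. The fitted 7KC effects ranged from -0.20 ± 0.164 for Ahcy to 0.11 ± 0.412 for Mthfd2. With the deposited values the 7KC ratios of Mat1a, Gnmt, Ahcy, Cbs, Pemt and Mthfd2 had opposite signs under the 2 diets. The fit averages the ratios of the 2 diets and takes their difference as spread. A count of 0 therefore does not show that 7KC left the members unchanged.

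Ratios of partner genes within a library do not depend on the scaling between libraries. The ratio of Bhmt to Cbs, the remethylation and the transsulfuration branch from homocysteine, was 19.5 in CD and 19.05 in CD+7KC but 6.45 in WD and 6.04 in WD+7KC. Gnmt to Pemt, 2 large users of SAM in the liver, stood at 5.07 (CD) and 5.39 (CD+7KC) in the chow libraries and 1.45 (WD) and 1.53 (WD+7KC) in the WD libraries. For both pairs the WD libraries lay well apart from the chow libraries, and libraries of the same diet lay close together. Mat1a to Mat2a, the adult liver form against the form of other tissues and growing cells, was 20.4 without and 18.4 with 7KC on chow, and 21.3 without and 17.3 with 7KC on WD, with no split by diet. Shmt1 to Shmt2 went from 0.956 in CD and 0.840 in CD+7KC to 0.799 in WD and 0.691 in WD+7KC. Among the folate enzymes, Mthfd1 to Mthfd1l, the cytosolic enzyme against its mitochondrial relative, was 21.3 on chow and 20.9 with 7KC added, and 11.6 on WD and 9.34 with 7KC added. Mthfd2 to Mthfd2l was 2.09, 1.29, 3.40 and 3.61 in the same order, from few reads for both genes.

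**Figure D5:**
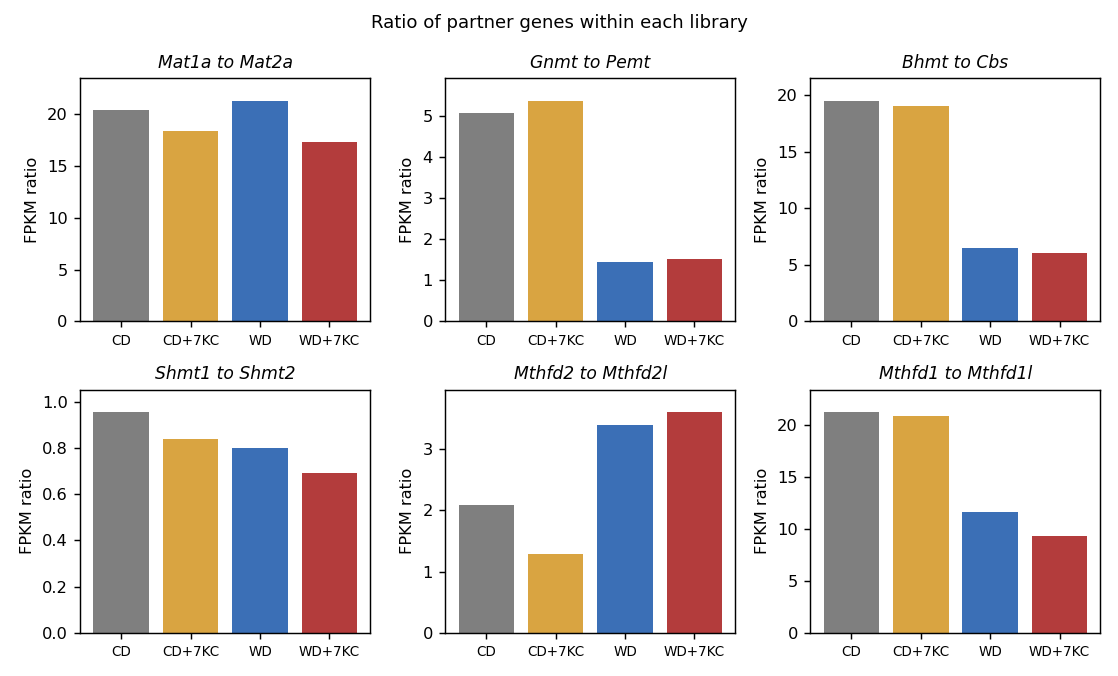
Ratio of FPKM between 6 pairs of partner genes within each of the 4 libraries, 1 bar per library on linear axes that start at 0. Bhmt to Cbs is 19.5 and 19.05 on chow and 6.45 and 6.04 on WD, and Mat1a to Mat2a lies between 17.3 and 21.3.

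Beyond the members, 101 companion genes of the pathway were looked up in 10 lists by role, and 90 of them passed the level filter. In WD compared to CD, 11 of the 90 (12.2%) were lower and 7 (7.78%) higher, with a median of -0.11. Over all tested genes the shares were 6.92% lower and 8.57% higher. In WD+7KC compared to CD+7KC, 13 (14.4%) were lower and 7 (7.78%) higher, where 8.32% and 11.8% of all genes were. The companions' median there was -0.22, or -0.018 after rescaling. Lower in both were 7 genes, 63.6% of the first list and 53.8% of the second: Cth, Nnmt, Inmt, Dmgdh, Chpt1, Aldh1l1 and Agxt. Higher in both were 4 genes, 57.1% of each list: Folr2, Psat1, Nupr1 and Fgf21. After rescaling to equal sums, Nnmt was at -0.56 in WD+7KC compared to CD+7KC, inside the threshold, as were Cdo1 (-0.40) and Slc44a1 (-0.41). The 7 higher genes of that comparison stayed past it, and others joined them. Mthfd1l was then also higher in both, at 0.61 and 0.82. The share of all genes that was lower or higher in both was not computed. By limma, 10 companions were lower and 4 higher in WD over both 7KC levels, where 3.48% of all genes were lower and 3.99% higher. Without a filter on low genes limma called 0 of them, Aldh7a1 was also not called with a pseudocount of 1 or with median-ratio scaling, and Psat1 was not called with upper-quartile scaling. For added 7KC, 3 (3.33%) were lower and 1 (1.11%) higher in CD+7KC compared to CD, where 3.04% and 4.39% of all genes were. In WD+7KC compared to WD, 6 (6.67%) were lower and 4 (4.44%) higher, where 3.03% and 7.49% of all genes were. After rescaling to equal sums, only Inmt (-0.70) of these lower genes stayed past the threshold. Cdo1 (-0.38), Csad (-0.42), Slc19a1 (-0.40), Agxt (-0.58) and Trib3 (-0.49) were inside it. The 4 higher genes stayed past it, and Dnmt1 joined them at 0.65. Over all genes, 140 were then lower and 1373 higher.

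In the methionine cycle itself, the 6 other genes tested had no ratio past the threshold in any comparison. Mat2a was between 35.5 and 45.7 FPKM, and Bhmt2, a relative of Bhmt that uses S-methylmethionine as donor, was at 102 FPKM (CD) and 109 (CD+7KC) in the chow libraries and 92.5 (WD) and 80.2 (WD+7KC) in the WD libraries. The ratios of Bhmt2 in the diet comparisons were -0.14 and -0.44, against -1.70 and -1.65 for Bhmt. Mat2b had the widest range of ratios, from -0.42 in CD+7KC compared to CD to 0.28 in WD+7KC compared to CD+7KC. Mtr, the folate-dependent methionine synthase, was at 0.79 to 1.11 FPKM, just under the filter on the mean.

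Downstream of Cbs, Cth, cystathionine gamma-lyase, was at 176 FPKM without and 202 with 7KC on chow, and 78.6 without and 64.8 with 7KC on WD. Its WD effect by limma was -1.40 ± 0.158 (adjusted p = 0.00599), and among the 4671 genes that averaged 10 FPKM or more its pattern over the 4 libraries was the third nearest to that of Gnmt, with a root mean square log2 distance of 0.098. Suox, sulfite oxidase, was also lower (limma, -0.69 ± 0.143, adjusted p = 0.0355). Cdo1 and Csad, which lead from cysteine to taurine, were past the threshold in WD+7KC compared to WD, at -0.59 and -0.63, but at -0.38 and -0.42 after rescaling. Gclc, the catalytic subunit of the first enzyme of glutathione synthesis, was at -0.72 in WD compared to CD but at -0.10 in WD+7KC compared to CD+7KC, or 0.11 after rescaling. Gss, glutathione synthetase, was the highest of this list in both, at 0.46 and 0.42 with the deposited values.

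All 6 genes of choline and betaine breakdown were below chow in both diet comparisons, with medians of -0.39 and -0.59, or -0.35 and -0.38 after rescaling. Dmgdh, which takes the next methyl group off the dimethylglycine that Bhmt releases, was at 213 FPKM on chow and 191 with 7KC added, and 109.8 on WD and 105 with 7KC added. Sardh, which oxidises the sarcosine made by Gnmt, was at 172 FPKM (CD) and 196 (CD+7KC) in the chow libraries and 117 (WD) and 91.9 (WD+7KC) in the WD libraries. By limma Dmgdh was at -0.91 ± 0.133 (adjusted p = 0.0129), Sardh at -0.82 ± 0.167 (adjusted p = 0.0324) and Aldh7a1, which oxidises betaine aldehyde, at -0.64 ± 0.148 (adjusted p = 0.048). Dmgdh and Sardh, which act next to Bhmt and Gnmt, were thus among the companions that were lower on WD by limma. Chdh, Pipox and Etfdh of the same list were not called, with WD effects of -0.16, -0.25 and -0.34. In WD compared to CD, Sardh (-0.55) and Aldh7a1 (-0.48) were inside the 1.5-fold threshold.

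Of the other methyltransferases, Inmt was at 1926 FPKM without and 1951 with 7KC on chow, and 1172 without and 620.5 with 7KC on WD, and Nnmt, which methylates nicotinamide, at 97.8, 109, 49.99 and 64.1 FPKM in the same order. Both were lower on WD by limma (Inmt -1.18 ± 0.239, adjusted p = 0.032; Nnmt -0.87 ± 0.134, adjusted p = 0.0148). Inmt was also past the threshold in WD+7KC compared to WD at -0.92, or -0.70 after rescaling. Dnmt3a, a DNA methyltransferase, was at 0.95 in WD+7KC compared to WD from levels of 1.72 and 3.41 FPKM. Gamt, which makes creatine, was not past the threshold in any comparison and ran from 158 FPKM in WD+7KC to 209 in WD. In the phosphatidylcholine route that runs beside Pemt, Chpt1 was at 402 FPKM on chow and 412 with 7KC added, and 244 on WD and 180 with 7KC added, with a WD effect of -0.96 ± 0.166 by limma (adjusted p = 0.021). Chka, choline kinase alpha, was highest in CD and lowest in WD, with 16.05, 10.48, 7.58 and 11.9 FPKM in the same order.

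Of the other folate enzymes, Aldh1l1, which releases the one-carbon unit as carbon dioxide, was at 329 FPKM (CD) and 407 (CD+7KC) in the chow libraries and 197 (WD) and 184 (WD+7KC) in the WD libraries. Its WD effect by limma was -0.94 ± 0.158 (adjusted p = 0.0187). Mthfd1l, a mitochondrial enzyme like Mthfd2, was at 2.28 and 2.51 FPKM on chow and at 3.46 and 3.90 FPKM on WD, without and with 7KC, with ratios of 0.58 and 0.61 in the diet comparisons. Slc25a32, the mitochondrial folate carrier, was at -0.96 and -0.38 in the diet comparisons, and Slc19a1, the reduced folate carrier, at 0.60 and -0.23. After rescaling, the second of these ratios was -0.17 for Slc25a32 and -0.026 for Slc19a1. Folr2, a folate receptor of macrophages, was the only companion past the threshold upwards in all 4 comparisons, with 4.37 FPKM without and 11.7 with 7KC on chow, and 8.81 without and 18.4 with 7KC on WD. It is also a marker of liver macrophages, whose summed markers are given above.

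In serine and glycine synthesis, Psat1 was at 0.65 FPKM on chow and 0.23 with 7KC added, and 2.25 on WD and 1.92 with 7KC added, with ratios of 1.66 and 2.61 in the diet comparisons and a WD effect of 2.14 ± 0.438 by limma (adjusted p = 0.0336). Phgdh, the first enzyme of serine synthesis, was at 0.16 to 0.25 FPKM, under the filter. Agxt, which turns glyoxylate to glycine, was at 76.2 FPKM (CD) and 60.3 (CD+7KC) in the chow libraries and 46.7 (WD) and 26.9 (WD+7KC) in the WD libraries. No gene of polyamine and methionine salvage was past the threshold in any comparison, with 9 of 10 tested.

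Mthfd2 and Psat1 are known targets of ATF4, the factor of the amino acid response, and other genes of that response did not share a single pattern. Of 9 tested, 2 were higher and 1 lower in WD compared to CD, where 8.57% and 6.92% of all genes were. In WD+7KC compared to CD+7KC, 3 were higher and 0 lower, where 11.8% and 8.32% of all genes were. Fgf21 was at 9.68 FPKM without and 10.02 with 7KC on chow, and 18.4 without and 18.3 with 7KC on WD, and Nupr1 at 6.50, 5.62, 11.6 and 12.2 FPKM. Atf4 itself was highest in CD, at 69.7 FPKM, and lay between 54.7 and 60.2 in the other libraries. Chac1, which degrades glutathione, was at 8.91 FPKM in CD and between 2.05 and 3.48 in the others. In CD+7KC compared to CD, Chac1 was at -2.06 and Psat1 at -1.18, beside -0.62 for Mthfd2. Of the 9 tested, 7 were below 0 there and 2 above. Asns, under the level filter, was at -2.26 [-9.01 to -0.83] there, from about 12.5 reads in CD and 1.04 in CD+7KC. Asns was at 2.85 [1.69 to 9.69] in WD+7KC compared to CD+7KC, but at 0.19 in WD compared to CD. Slc7a11, also under the filter, was at 0.030 to 0.11 FPKM. The pattern nearest to that of Mthfd2 in the same pool of 4671 genes was that of Ndufs5, at a distance of 0.15, which is further than the nearest gene of any other member.

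Among the members, the pattern nearest to that of Bhmt was that of Gnmt, at a root mean square log2 distance of 0.12, and Nat8 was the nearest gene overall at 0.105. For Gnmt the nearest was the pseudogene Marcksl1-ps4 (0.019), for Mat1a 4931406C07Rik (0.010), for Ahcy Ccdc107 (0.010), for Shmt1 Lactb (0.012), for Shmt2 Cog4 (0.009), for Pemt Pqlc1 (0.007) and for Cbs Pcmt1 (0.007). With 4 points per gene such closeness is a description only.

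The members are spread over the genome (GRCm38, GENCODE vM21), and only Gnmt (chr17:46725664-46729168) and Cbs (chr17:31608894-31637238), and Pemt (chr11:59970614-60046489) and Shmt1 (chr11:60788104-60811718), share a chromosome. The others are Mat1a (chr14:41105035-41124412), Bhmt (chr13:93616675-93637961), Ahcy (chr2:155059310-155074497), Shmt2 (chr10:127517123-127522444) and Mthfd2 (chr6:83305691-83325908). Parts of the Ahcy and Bhmt mRNAs occur word for word in other gene models: 70.8% of the 75-base stretches of Ahcy are also in Gm4737 and 48.8% of those of Bhmt in Gm5096. Their levels are uncertain to that extent, because the sources used here do not state how reads with several matches were treated. Gm4737 was listed at 0 to 0.096 FPKM, and adding it to Ahcy left the ratios at -0.47 and -0.95; Gm5096 was not analysed here. Gnmt, Bhmt, Ahcy, Shmt1 and Shmt2 overlap genes on the other strand, and Mthfd2 overlaps Gm43890 on its own strand; whether the counting used strand was not stated.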

How the data were processed

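Liver RNA of 4 libraries, 1 per group, was sequenced as 75-base single-end reads from stranded mRNA libraries. The authors mapped the reads to mm10 with TopHat2 2.0.13, Bowtie2 2.2.3 and SAMtools 0.1.19 and computed with Cufflinks 2.2.1 the FPKM values they deposited, 1 per gene symbol. The gene annotation, the strand setting and the treatment of reads with several matches were not given in the sources used here. FPKM depends on the total mapped, so a few very abundant liver transcripts can move every other value. Groups came from the labels, and 0 columns of other samples were present.

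From the deposited values, log2 ratios of FPKM + 0.1 were computed for genes that averaged 1 FPKM or more, and genes past 1.5-fold were counted. The members and the companion and marker lists were chosen with earlier results of these data known. Named genes were the 9 members, from each companion list the highest and the lowest ratio of each comparison (a choice of these is printed), the partners Mat2a, Bhmt2, Mtr, Cth, Gamt, Nnmt, Mthfd1, Mthfd1l and Mthfd2l (another partner is not reported here), and for each member the 3 genes of nearest pattern, the smallest root mean square distance of centred log2 values, among genes that averaged 10 FPKM or more (the first is printed). Atf4, Phgdh, Suox, Cdo1, Aldh7a1, Etfdh, Dnmt1, Slc44a1, Gm4737, Asns, Slc7a11 and the markers Cyp2e1, Hal and Cyp1a2 were named after their values were known.

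Depth was estimated from low values of genes with 1 RefSeq mRNA, taking the mRNA length minus 200 bases. It came to 10970000 fragments for CD, 11000000 for CD+7KC, 9410000 for WD and 12130000 for WD+7KC, and 71.4% to 71.9% of low values lay within 0.1 of a whole read. Counting intervals (95%, Clopper-Pearson) rest on this estimate, were a later addition made with the values known and cover counting error only. The additive limma fit (diet and 7KC, trend, Benjamini-Hochberg over 10686 genes, prior degrees of freedom 6.04) was added at the same point. Its p-values take the departure of 4 libraries from additivity as the spread, and assume that 1 library stands for its group. Alternatives were pseudocounts of 1 and 0.01, equal sums (TPM), upper-quartile and median-ratio scaling, equal sums without the 20 highest genes, no filter, a filter of 10 FPKM and a threshold of 1. Locations came from GENCODE vM21 and promoters from RefSeq (GRCm38.p6). The code was tested on simulated data. Python 3.11.15, numpy 2.4.6, pandas 2.3.3, scipy 1.17.1, matplotlib 3.10.9, R 4.3.3 and limma 3.58.1 were used.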

Additional observations from a re-analysis of the deposited data

Results flagged for a closer look

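For 6 members the 7KC ratio had opposite signs on chow and on WD with the deposited values, which drew attention to them; with 1 library per group the difference was not tested. The difference, the log2 ratio of WD+7KC to WD minus that of CD+7KC to CD, was 1.45 for Mthfd2, with a 95% counting interval of 0.27 to 2.88, and 1.62 after rescaling to equal sums. It was -0.48 for Ahcy, -0.38 for Gnmt, -0.37 for Mat1a and -0.37 for Pemt, and after rescaling it was -0.30, -0.20, -0.20 and -0.19. For Cbs it was 0.11, and after rescaling 0.29. These rescaled values stand beside the lower sum of the WD+7KC library.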

How the results depend on the processing

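Over 8 alternatives the log2 ratio of Bhmt ran from -1.72 to -1.66 in WD compared to CD. In WD+7KC compared to CD+7KC it ran from -1.65 to -1.44. That of Gnmt ran from -1.43 to -1.37 in the first and from -1.78 to -1.57 in the second. That of Ahcy in the second ran from -0.95 to -0.74, and all of these were past 1.5-fold. With a log2 threshold of 1, 2 members in place of 3 were lower in the second, as Ahcy was no longer counted. Mthfd2 was not counted as lower in CD+7KC compared to CD (0 members) with a pseudocount of 1, equal sums, a filter of 10 FPKM or a threshold of 1. It was not counted as higher (0 members) in WD+7KC compared to WD with that filter or threshold, in WD+7KC compared to CD+7KC with that filter, or in WD compared to CD with these, a pseudocount of 1, upper-quartile or median-ratio scaling. The filter of 10 FPKM removes Mthfd2. The members' median in WD+7KC compared to WD went from -0.20 to 0.011 with equal sums and to -0.030 without the 20 highest genes. In WD compared to CD it went from -0.16 to -0.28 with the filter of 10 FPKM. In WD+7KC compared to CD+7KC it went from -0.44 to -0.24 with equal sums, -0.40 with the upper quartile, -0.25 without the 20 highest genes and -0.50 with the filter. The median difference between the 7KC ratios went from -0.14 to 0.035 with equal sums and 0.018 without the 20 highest genes. Without a filter, limma called 0 members for WD in place of 3, and 2 genes higher and 3 lower of 16408 in place of 426 and 372; without the 20 highest genes it called 666 higher.

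Counts over all genes past the threshold, higher and lower, were 230 and 180 in CD+7KC compared to CD with a pseudocount of 1, 520 and 201 in WD+7KC compared to WD, and 577 and 477 in WD compared to CD. Without a filter they were 1627 and 1115, 2230 and 1080, 2099 and 1679, and 2784 and 1813 in WD+7KC compared to CD+7KC. With the filter of 10 FPKM they were 85 and 77, 98 and 131, 248 and 222, and 291 and 422. With a threshold of 1 they were 126 and 92, 290 and 82, 279 and 218, and 545 and 300. Without the 20 highest genes they were 1230 and 156 in WD+7KC compared to WD and 1905 and 531 in WD+7KC compared to CD+7KC. For 7KC, limma called at most 10 genes higher and 3 lower, except 46 and 48 with the filter of 10 FPKM.

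No paired analysis was possible because each group had 1 library and the labels carry no replicate numbers, and leaving out a library leaves its group empty. With about 9.41 to 12.13 reads per kilobase at 1 FPKM, depth limits Mthfd2 and Psat1 and not the abundant members, for which the lack of replicates is the limit.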
